A study of Caenorhabditis elegans with 2 samples.

Results

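Small nucleolar RNA (snoRNA) and small nuclear RNA (snRNA) genes were near 189 of the 27729 regions in the pooled SKN-1 ChIP-seq list, which is 0.682% of that list. Whole L1 larvae (the first larval stage) of Caenorhabditis elegans were used, of strain OP178, genotype unc-119(ed3) III with the integrated transgene wgIs178 that carries eGFP-tagged skn-1. There was 1 group with 2 biological replicates of mixed-sex larvae of unstated age, so nothing was compared between conditions. Both replicates carried the transgene in the same unc-119 background, SKN-1 was measured only as the tagged protein, and the cells of whole larvae cannot be told apart. A region was taken when its summit, the position of highest signal in the authors' list, lay within 200 bp of a gene annotated as snoRNA or snRNA and not within 200 bp of a tRNA gene. The last condition left out 1 region. Distance alone chose the regions, so their signal, their replicate agreement and the position of the summit on the gene's strand were not used to choose them.

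SKN-1 is a transcription factor related to the Nrf family of stress-response factors, and it is known for detoxification genes and for the specification of endoderm in the embryo. snRNAs are the RNA parts of the splicing machinery, and nematodes also use spliced leader RNAs, SL1 and SL2, which are joined to the start of many messenger RNAs by trans-splicing. snoRNAs guide chemical modification of other RNAs, mainly ribosomal RNA, and are found either inside introns of host genes or as units of their own. snRNA genes are transcribed from short upstream promoters whose proximal sequence element (PSE) is bound by the SNAPc complex. tRNA genes use internal elements named the A box and the B box, and in C. elegans snoRNA genes with upstream elements of their own are known, some of them inside introns.

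Of the 189 regions, 159 lay nearest to a snoRNA gene and 30 nearest to an snRNA gene. Among those at snoRNA genes, 76 were at genes inside an intron of a protein-coding host gene and 83 were at other snoRNA genes. Only 3 regions had 2 such genes within 200 bp. The regions touched 181 of the 475 annotated genes, 170 of them with 1 region and 11 with 2. Chromosome II held the most regions (47), followed by I (40), V (35), III (28), IV (26) and X (13). Of the 475 genes, 87 are on II, 90 on I, 95 on V, 67 on III, 100 on IV and 36 on X. The bases within 200 bp of these genes make up 0.247% of the nuclear genome.

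The authors' optimal list, made by the irreproducible discovery rate (IDR) procedure from both replicates, held 3484 regions, called optimal peaks here. They were exactly the 3484 regions of highest signal in the pooled list, so membership in the optimal list and rank by signal are 1 measure and not a pair of independent ones. The signal value is the authors' own and ranks regions within 1 list. The pooled list and the 30000 regions of each replicate also hold background regions. Read depth is unknown, and intervals are 95% Wilson intervals, which cover counting error over regions or genes and nothing else. Genes are those of Ensembl release 115 on WBcel235, the same assembly as ce11, and positions count from 1.

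The sequences upstream of the genes show 2 kinds of promoter letters at the peaks, so examples are printed before the values, each with 100 bases before and 20 bases from the gene's start on, read from RefSeq's WBcel235 genome on the gene's strand. Capitals in this first set mark the PSE-like letters TGTCNG, and all 8 genes had an optimal peak. The genes of both sets were picked because they hold the letters.
sls-2.1 (chrII:5844765-5844884, plus strand): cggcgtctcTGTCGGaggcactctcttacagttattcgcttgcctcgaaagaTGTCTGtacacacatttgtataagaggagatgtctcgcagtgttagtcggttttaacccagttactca
R07E5.16 (chrIII:10989579-10989698, plus strand): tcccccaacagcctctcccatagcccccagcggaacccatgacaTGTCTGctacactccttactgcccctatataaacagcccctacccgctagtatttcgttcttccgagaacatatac
sls-2.8 (chrIII:12250365-12250484, plus strand): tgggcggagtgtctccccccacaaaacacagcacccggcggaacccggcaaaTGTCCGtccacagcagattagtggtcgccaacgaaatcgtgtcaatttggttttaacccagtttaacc
M163.13 (chrX:14476767-14476886, plus strand): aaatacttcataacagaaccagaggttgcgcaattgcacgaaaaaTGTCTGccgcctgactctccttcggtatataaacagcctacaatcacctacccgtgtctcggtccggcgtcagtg
sup-6 (chrII:12944948-12945067, minus strand): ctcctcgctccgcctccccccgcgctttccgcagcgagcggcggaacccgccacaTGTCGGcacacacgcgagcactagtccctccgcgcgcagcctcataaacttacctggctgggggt
Y53F4B.47 (chrII:15025874-15025993, minus strand): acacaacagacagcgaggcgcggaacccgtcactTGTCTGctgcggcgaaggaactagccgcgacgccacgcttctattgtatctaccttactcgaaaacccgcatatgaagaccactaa
C08D8.3 (chrV:8349008-8349127, plus strand): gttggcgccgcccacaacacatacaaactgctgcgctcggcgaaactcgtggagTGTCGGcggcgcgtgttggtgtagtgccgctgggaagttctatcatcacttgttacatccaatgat
smy-2 (chrIV:9511447-9511566, minus strand): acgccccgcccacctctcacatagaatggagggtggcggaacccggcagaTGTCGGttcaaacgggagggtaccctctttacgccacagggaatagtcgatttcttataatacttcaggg
The first 5 are snRNA genes, among them the SL2 genes sls-2.1 and sls-2.8 and the U1 gene sup-6. Y53F4B.47 is a snoRNA gene outside host introns, and C08D8.3 is a snoRNA gene in an intron of C08D8.1. smy-2 carries a name of the Sm Y class of snRNAs, which take part in trans-splicing in nematodes, but is annotated as a snoRNA and lies in an intron. The name R07E5.16 is shared by several annotated copies, and the copy shown is WBGene00014543.

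In the second set, all at snoRNA genes, capitals mark the A-box-like letters TGGCNNANNGG and the B-box-like letters GTTCNANNC, or, at T03F7.8, also the PSE-like letters.
Y38F2AR.14 (chrIV:2408616-2408735, minus strand): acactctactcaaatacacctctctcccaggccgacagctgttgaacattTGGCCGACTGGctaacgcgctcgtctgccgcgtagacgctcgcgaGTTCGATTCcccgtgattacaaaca
C04G6.12 (chrII:5105212-5105331, minus strand): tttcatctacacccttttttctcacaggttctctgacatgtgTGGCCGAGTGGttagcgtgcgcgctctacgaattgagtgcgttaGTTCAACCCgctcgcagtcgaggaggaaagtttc
C41C4.11 (chrII:8107251-8107370, minus strand): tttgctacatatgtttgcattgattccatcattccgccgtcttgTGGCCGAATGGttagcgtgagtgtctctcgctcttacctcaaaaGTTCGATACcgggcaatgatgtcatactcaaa
C05D2.15 (chrIII:5602160-5602279, minus strand): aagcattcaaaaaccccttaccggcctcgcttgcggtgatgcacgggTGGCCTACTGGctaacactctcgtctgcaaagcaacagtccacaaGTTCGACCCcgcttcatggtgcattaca
T03F7.8 (chrV:11314158-11314277, plus strand): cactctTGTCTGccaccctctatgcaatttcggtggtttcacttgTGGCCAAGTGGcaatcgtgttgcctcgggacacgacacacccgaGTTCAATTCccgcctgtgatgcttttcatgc
In each of the 5 the A-box-like letters stood before the B-box-like letters, and both began before the annotated start of the snoRNA. An optimal peak at a snoRNA gene without any of these letters on the gene's strand is F09G2.14, shown for contrast. On the other strand its region does hold PSE-like letters.
F09G2.14 (chrV:7196561-7196680, minus strand): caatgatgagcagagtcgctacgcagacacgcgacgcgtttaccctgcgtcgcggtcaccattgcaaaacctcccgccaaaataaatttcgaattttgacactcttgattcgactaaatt

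SKN-1 signal at these regions was high within the pooled list. Of the 189 regions, 93 were optimal peaks, a share of 49.2% (42.2% to 56.3%), against 12.6% of all pooled regions. The median signal percentile, where 100 is the strongest region of the pooled list, was 87.3 (95% interval 81.6 to 90.9), against 50 for all pooled regions by construction. Single regions ranged from percentile 0.114 to 99.4. The median signal was 32.7 at these regions and 12.6 in the pooled list, and among optimal peaks it was 69.1 at these genes and 58.1 over all optimal peaks. The 189 regions included 7 of the 300 strongest (2.33%), 10 of the 500 strongest (2%) and 31 of the 1000 strongest (3.1%). These shares stood against 0.682% of the whole pooled list and 2.67% of the optimal list. The very strongest region was not among them: the highest signal at these genes was 176, against 1810 in the whole list.

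The classes overlapped in this share. Optimal peaks were 13 of 30 regions at snRNA genes (43.3%, 27.4% to 60.8%), 35 of 76 at snoRNA genes in host introns (46.1%, 35.3% to 57.2%) and 45 of 83 at other snoRNA genes (54.2%, 43.6% to 64.5%). Regions at tRNA genes had a similar share, 151 of 364 (41.5%, 36.5% to 46.6%). Regions at miRNA genes had a lower one, 12 of 64 (18.8%, 11.1% to 30.0%), whose interval did not reach that of the 189 regions. GC content within 75 bp of the summit differed between these regions and the pooled list. It was 47.7% in the median at snRNA genes, 50% at snoRNA genes in host introns and 47.0% at other snoRNA genes. At tRNA genes it was 47.0%, and at miRNA genes 40.4%. For optimal peaks at snoRNA and snRNA genes the median was 52.3%, and for regions there in the pooled list only it was 40.4%. Over all optimal peaks it was 43.7%. All 189 regions had 47.7%, against 35.8% for all pooled regions. The part of GC content in the signal was not tested.

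Each replicate's own list held a summit close to most of these regions. Replicate 1 had a summit within 100 bp at 149 of the 189 regions (78.8%), against 49.2% of all pooled regions. Replicate 2 had one at 147 (77.8%), against 62.9% of all pooled regions. Both replicates had one at 120 (63.5%), against 28.9%. For optimal peaks the agreement was 90 of 93 (96.8%), close to the 92.7% over all optimal peaks. The 3 exceptions were F26D10.24, F07A11.15 and T24H7.6, each with a summit within 100 bp in 1 replicate only; they are named here after their values were seen. Of the 96 regions in the pooled list only, 30 (31.2%) had a summit in both replicates. The share over all pooled regions, 28.9% (8021 of 27729), is not a like comparison. It includes the optimal peaks, of which 3229 of 3484 had a summit in both replicates. The share over pooled regions outside the optimal list is therefore lower than 28.9%. Replicate 2 had a summit at 91.6% of regions at snoRNA genes outside host introns and at 67.1% of those in host introns, while replicate 1 had one at 77.1% of the regions outside host introns and 80.3% of those in them.

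**Figure D1:**
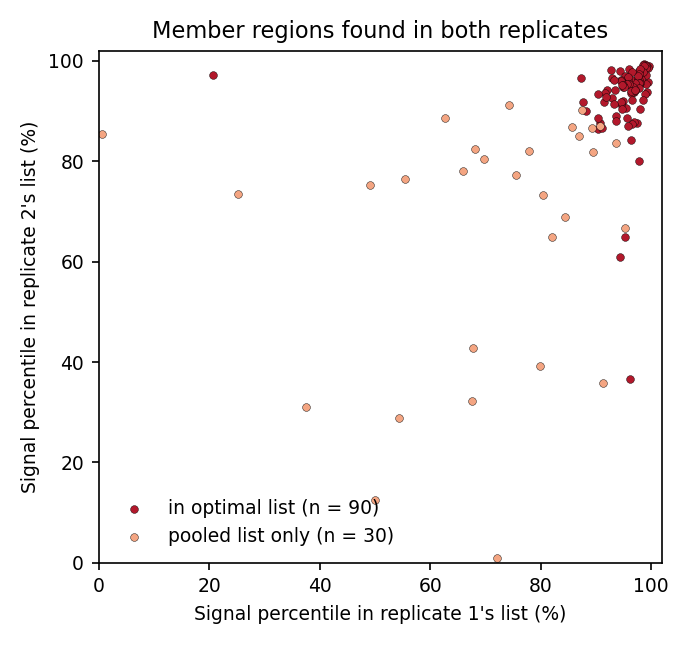
Signal percentile in replicate 2's list (y axis, percent) against that in replicate 1's list (x axis, percent) for regions at snoRNA and snRNA genes that had a summit within 100 bp in both; each point is 1 region. Most of the 90 optimal peaks (dark) sit in the upper right corner, a few fall low in 1 replicate, and the 30 regions in the pooled list only (light) spread widely.

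Counted by gene, snoRNA genes had SKN-1 peaks more often than snRNA genes. A pooled region lay within 200 bp of 153 of 346 snoRNA genes (44.2%, 39.1% to 49.5%) and of 28 of 129 snRNA genes (21.7%, 15.5% to 29.6%). The 28 include mir-1831, a 22-base gene inside sup-39 that carries a microRNA name but is annotated as snRNA, and that is counted through the same region as sup-39. An optimal peak lay within that distance of 81 snoRNA genes (23.4%, 19.3% to 28.1%) and of 13 snRNA genes (10.1%, 5.98% to 16.5%). The intervals of both gene types did not overlap for either list. snoRNA genes are mostly single-copy, with a median of 100% of the 31-base words in and around the gene found once in the genome, and snRNA genes are repeated, with a median of 80.3%. Reads from repeated genes can be lost in alignment, and how the authors treated them is not given in the sources used here. Among genes with at least 90% of such words unique, the optimal shares were 78 of 306 snoRNA genes (25.5%) and 3 of 36 snRNA genes (8.33%, 2.87% to 21.8%), so the intervals then overlapped.

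Set on the same footing as other genes, by a summit within 200 bp of the annotated start, 41.0% of snoRNA genes and 20.9% of snRNA genes had a pooled region, against 19.8% of 19973 protein-coding genes. Optimal peaks lay at the start of 23.4% of snoRNA genes (19.3% to 28.1%) and 10.1% of snRNA genes (5.98% to 16.5%), against 6.52% of protein-coding genes (6.19% to 6.87%). The snoRNA interval lay above the protein-coding value, whereas the snRNA interval reached down to it. The protein-coding value depends on the window. From 1000 bp before to 200 bp after an annotated transcript start, 15% of protein-coding genes had an optimal peak. tRNA genes had 60.9% with a pooled region and 26.1% with an optimal peak, and their optimal interval (22.8% to 29.8%) overlapped that of snoRNA genes. miRNA genes had 4.21% with an optimal peak (2.37% to 7.39%), below snoRNA genes. For piRNA genes, a class of very short and clustered genes, the optimal share was 0.247%.

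**Figure D2:**
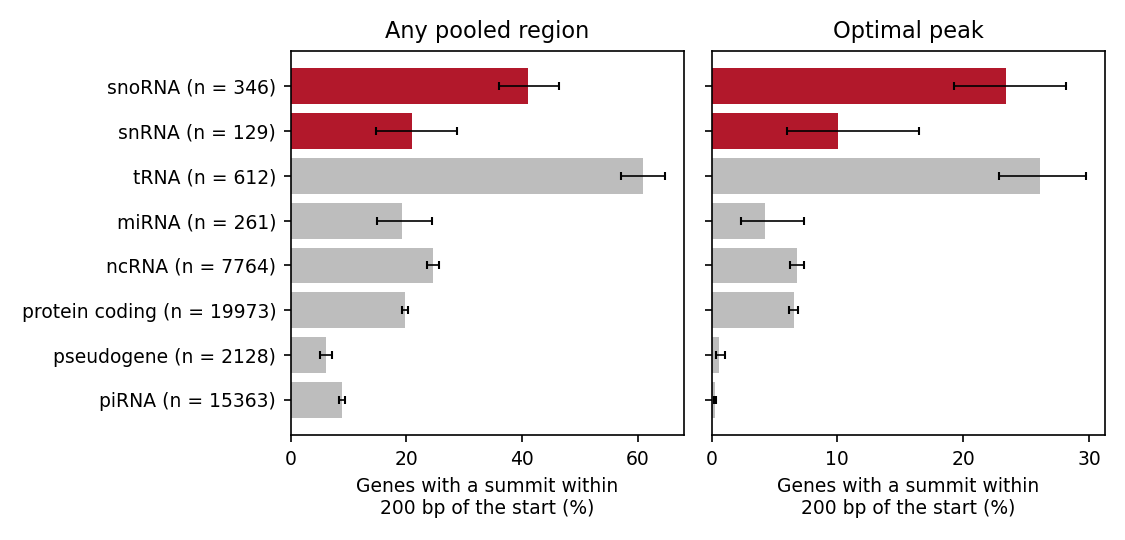
Share of genes of each Ensembl type (percent, x axis) with a pooled region (left) or an optimal peak (right) whose summit lies within 200 bp of the gene's start; lines are 95% Wilson intervals over genes. snoRNA genes reach 23.4% in the right panel, next to tRNA genes at 26.1%, and snRNA genes reach 10.1%, against 6.52% of protein-coding genes.

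The summits sat just before the gene. Relative to the gene's start, with negative positions upstream, optimal peaks had a median summit position of −45 bp (quartiles −62 and −23). Of the 93 optimal peaks, 80 were upstream of the start, 9 inside the gene and 4 downstream of it, and 71 (76.3%) were within the 100 bp before the start. The 96 regions in the pooled list only were spread on both sides, with a median of 72.5 bp and 22 (22.9%) in those 100 bp. snRNA genes gave the narrowest distribution, since 12 of 13 optimal peaks lay within 100 bp upstream (median −47 bp, quartiles −48 and −43). The median was −42 bp for optimal peaks at snoRNA genes in host introns and −47 bp at other snoRNA genes. The rule itself is symmetric about the gene, so it does not set the side on which a summit falls.

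**Figure D3:**
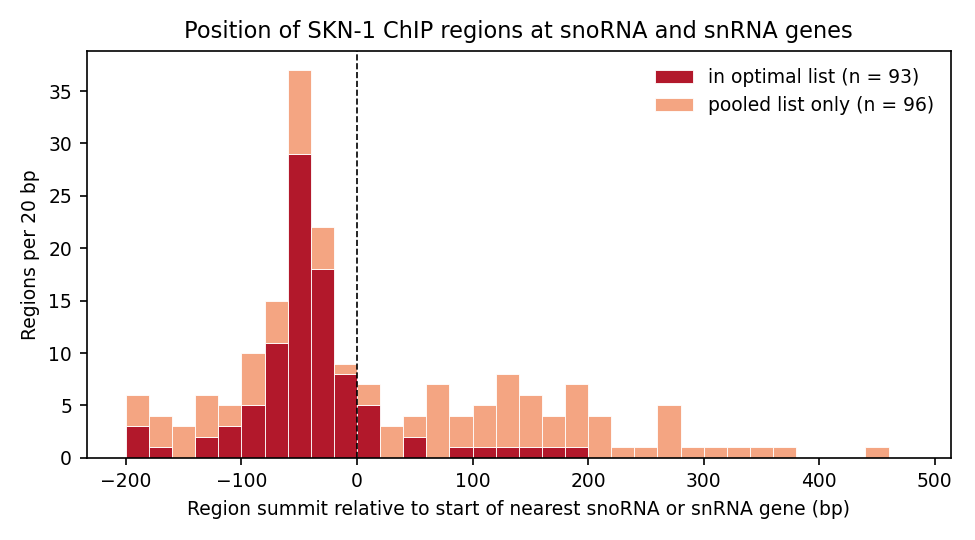
Number of regions per 20 bp (y axis) by position of the summit relative to the start of the nearest snoRNA or snRNA gene (x axis, bp, negative upstream, dashed line at the start), with optimal peaks in dark and regions in the pooled list only in light. The optimal peaks stand in 1 narrow peak just before the start, with a median at −45 bp, and the others spread over both sides.

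Many of the optimal peaks lay away from the starts of protein-coding genes. Of the 189 regions, 115 lay outside every promoter window of a protein-coding gene (1000 bp before to 200 bp after an annotated transcript start), and 55 of these (47.8%, 38.9% to 56.9%) were optimal peaks, against 6.76% of all pooled regions outside such windows. Of the 74 regions inside a window, 38 (51.4%, 40.2% to 62.4%) were optimal peaks, against 22.6% of all pooled regions inside. A region inside a window cannot be assigned to the small RNA gene alone. Promoter windows held 40.9% of the optimal peaks at snoRNA and snRNA genes, against 66% of all optimal peaks.

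Of the 5 strongest peaks at snRNA genes, 4 lay at SL2 genes. SL2 is the leader that is joined to downstream genes of operons, and 8 of its 18 genes had a pooled region and 5 an optimal peak. The strongest region of all 189 lay at sls-2.4 (chrI:4172015-4172310, in the promoter window of egg-5), at rank 173 of the pooled list, rank 146 of replicate 1 and rank 302 of replicate 2. Its signal was 176, with the summit 43 bp before the gene. At sls-2.1 (chrII:5844670-5844965, in the promoter window of H41C03.3) the ranks were 284 in the pooled list, 275 in replicate 1 and 312 in replicate 2. sls-2.2 (chrII:5543403-5543698) had pooled rank 327, with ranks 365 in replicate 1 and 292 in replicate 2. sls-2.8 (chrIII:12250261-12250556, in promoter windows of Y75B8A.23 and tim-1) had pooled rank 422, higher in replicate 1 (rank 258) than in replicate 2 (rank 865). These 4 regions had summits between 43 and 56 bp before the start. The fifth SL2 gene with an optimal peak, sls-2.3, had the weakest of the 13 snRNA peaks, at pooled rank 2597 with its summit 85 bp before the start. A second region past the gene, lower in the pooled list, was listed at sls-2.2 (pooled rank 6849), sls-2.4 (9094) and sls-2.1 (19333). The replicates differed there. In replicate 1 the ranks were 14818 at sls-2.2, 3528 at sls-2.4 and 1411 at sls-2.1. Replicate 2 had a summit within 100 bp only at sls-2.1, at rank 9980. A further SL2 gene, sls-2.7, had a region outside the optimal list, at pooled rank 6655, with a summit close by in replicate 1 (rank 2297) and none within 100 bp in replicate 2.

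The other snRNA genes were grouped by sequence identity of at least 80%, and each family is named after a member, because the annotation used here does not name their U type. In the largest family, that of R07E5.16 with 23 genes, 7 had a region and 3 an optimal peak. The copy WBGene00014543, in an intron of the dynein heavy chain gene dhc-4 (chrIII:10989491-10989786), had pooled rank 291, rank 261 in replicate 1 and rank 403 in replicate 2. F54D8.7 of the same family, in the promoter window of cox-6A, was weaker, at pooled rank 1959. The family of F38E11.11 had 4 of 12 genes with a region and 2 with an optimal peak. Of these, F38E11.11 itself ranked 782, in the promoter window of F38E11.9. The family of T11F9.15 had 1 of 5, at T11F9.15, pooled rank 690, in the promoter window of snr-4. M163.13, on chromosome X and in no family, ranked 565 and had summits 3 bp and 13 bp away in replicate 1 and replicate 2.

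Suppressor mutations in sup-6 and sup-39 lie in U1 snRNA, which recognizes the start of introns. In their family, 5 of 13 genes had a region and 1, sup-6, an optimal peak (chrII:12944844-12945139). Its pooled rank was 844, and the replicates differed, with rank 457 in replicate 1 and rank 2368 in replicate 2. sup-39 was far weaker, at rank 8959 of the pooled list, rank 9680 of replicate 1 and rank 17183 of replicate 2. In the family of C47F8.9, 1 of 19 genes had a region and none had an optimal peak. None of the 12 sls-1 genes, which encode SL1, and none of the 10 smy genes annotated as snRNA had a region. For sls-1 the median share of unique words was 0%, and for the smy genes it was 99.3%. The part of repeated sequence in these counts was not tested.

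**Figure D4:**
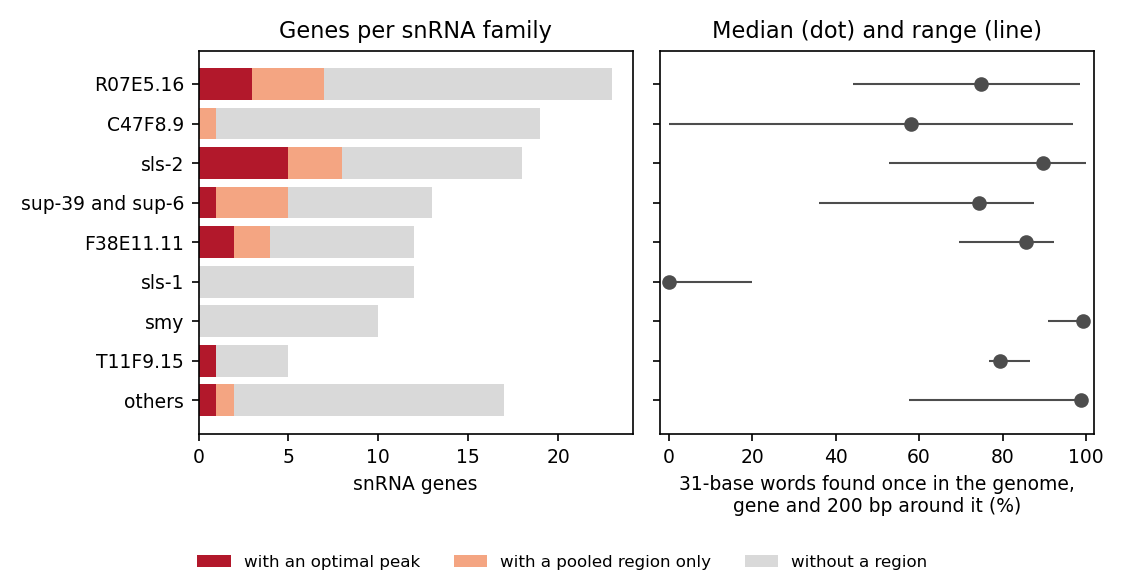
Left, number of genes (x axis) in each snRNA family, split into those with an optimal peak (dark), with a pooled region only (light) and without a region (grey). Right, median (dot) and range (line) of the share of 31-base words in and within 200 bp of the gene that occur once in the genome (percent); the 5 sls-2 genes with an optimal peak are the most of any family, sls-1 has none at a median of 0% unique words, and smy has none at 99.3%.

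Placement in a host intron did not separate snoRNA genes clearly. Of 178 snoRNA genes in host introns, 75 (42.1%, 35.1% to 49.5%) had a region and 36 (20.2%, 15% to 26.7%) an optimal peak. Of 168 other snoRNA genes, 78 (46.4%, 39.1% to 54.0%) had a region and 45 (26.8%, 20.7% to 33.9%) an optimal peak. The intervals overlapped for both lists. On the strand of the host, 27 of 150 genes (18.0%, 12.7% to 24.9%) had an optimal peak, and on the opposite strand 9 of 28 (32.1%, 17.9% to 50.7%), with overlapping intervals.

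The strongest peak in a host intron lay at ZK484.9 (chrI:6082680-6082975), inside and opposite to the ABC transporter gene haf-9, at pooled rank 229, rank 399 in replicate 1 and rank 215 in replicate 2. Y38F2AR.14 (chrIV:2408531-2408826), in an intron of Y38F2AR.12, had pooled rank 251, rank 197 in replicate 1 and rank 434 in replicate 2. C04G6.12 (chrII:5105132-5105427), inside and opposite to the MAP kinase gene mpk-2, had pooled rank 546, with ranks 685 in replicate 1 and 616 in replicate 2. None of these 3 lay in a promoter window, and their summits were between 23 and 49 bp before the snoRNA.

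The next in order were F55A11.10 (pooled rank 736), Y37E3.20 in pcyt-2.1 (740), C27H6.5 in unc-41 (830), M106.6 in mix-1 (898), C08D8.3 (1018), D1046.6 in cfim-2 (1022) and K02C4.7 opposite to ltd-1 (1165). The gene mix-1 encodes a condensin subunit and unc-41 a protein of synaptic vesicle recycling. Of these 7, all had a summit of each replicate within 100 bp, and Y37E3.20 differed most between replicates, at rank 310 in replicate 1 and rank 1983 in replicate 2. The peaks at F55A11.10, Y37E3.20, D1046.6 and K02C4.7 lay in a promoter window of the host gene. The strongest intron regions outside the optimal list were W04D2.7 in inx-11 (pooled rank 3512), T06D8.11 in plpr-1 (3698) and C56G2.20 in akap-1 (3807).

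Outside host introns, F39B2.14 (chrI:14759466-14759545), in the promoter windows of the ribosomal protein gene rps-26 and of tmem-107, had the strongest peak, at pooled rank 247, rank 268 in replicate 1 and rank 270 in replicate 2. Its summit was 122 bp before the snoRNA. F09G2.14 (chrV:7196481-7196776) had pooled rank 275, rank 440 in replicate 1 and rank 223 in replicate 2, with its summit 49 bp before the gene, and lay in promoter windows of F09G2.2 and attf-2. C51F7.4 (chrV:12303491-12303786) had pooled rank 391, rank 179 in replicate 1 and rank 1247 in replicate 2. Its region also lay within 200 bp of C51F7.3, a snoRNA gene in a host intron.

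Y53F4B.47 had pooled rank 511 and Y53F4B.48 rank 541, with 474 and 471 in replicate 1 and 679 and 688 in replicate 2. T06C12.16 (528) and T02E1.9 (540) were stronger in replicate 1, at ranks 232 and 281, than in replicate 2, at ranks 1850 and 1368. D2021.6 (746), K02C4.8 (754) and F59C6.15 (775) completed the 10 strongest. All of these 10 except C51F7.4 and T06C12.16 lay in a promoter window of a protein-coding gene. Among these windows were those of cmtr-1 at Y53F4B.47, gst-27 at Y53F4B.48 and sdha-1 at D2021.6. Just below the optimal list were C29F5.11 (3505), F37A8.7 (3540) and C53B7.8 (3566).

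Most snoRNA genes with A-box-like or B-box-like letters had an optimal peak. Within 100 bases before to 20 bases after the start, on the gene's strand, 47 of 346 snoRNA genes held 1 or both. Of these 47 genes, 39 had a region (83.0%, 69.9% to 91.1%) and 32 an optimal peak (68.1%, 53.8% to 79.6%). Of the 299 without them, 114 had a region (38.1%, 32.8% to 43.7%) and 49 an optimal peak (16.4%, 12.6% to 21.0%). Read the other way, the letters stood at 39.5% of snoRNA genes with an optimal peak, 9.72% of those with a region outside the optimal list, 4.15% of those without a region and 1.91% of protein-coding starts. The letters were chosen after the sequences at the peaks had been read, so these shares are a description and no test.

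Both kinds of snoRNA gene held such letters. In host introns, 28 of 60 genes with A-box-like, B-box-like or PSE-like letters had an optimal peak (46.7%, 34.6% to 59.1%), against 8 of 118 genes with none of them (6.78%, 3.48% to 12.8%). Outside host introns it was 21 of 48 genes (43.8%, 30.7% to 57.7%), against 24 of 120 (20%, 13.8% to 28.0%). The most frequent 7-letter word before snoRNA genes with an optimal peak was TGGCGCA, an A-box-type word, at 12 of 81 genes (14.8%). It stood before 1.55% of snoRNA genes without a region and 0.17% of protein-coding genes. The word was picked for its frequency at these same peaks, so the difference is a description and no test.

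PSE-like letters were frequent at snRNA genes with and without a peak. They stood before 62.0% of snRNA genes, 19.9% of snoRNA genes and 7.86% of protein-coding genes. Among snRNA genes they stood at 10 of 13 with an optimal peak (76.9%, 49.7% to 91.8%) and 62 of 101 without any region (61.4%, 51.6% to 70.3%), with overlapping intervals. Those without a region include the 12 sls-1 genes, 10 of them with the letters, at a median of 0% unique words. They also include the 10 smy genes, 2 of them with the letters, at 99.3%. The part of repeated sequence in this comparison was not tested. Among snoRNA genes with PSE-like letters and neither box, 30 of 61 had a region and 17 an optimal peak (27.9%, 18.2% to 40.2%). The letters began at a median position of −44, and optimal summits lay −3.5 bp from them in the median. A-box-like letters were at −50.5 and summits 0.5 bp from them, while B-box-like letters were at −7.5 and summits −33.5 bp from them. Other words shared by many snRNA promoters were AACCCGC, at 33 of 129 genes (25.6%), against 0.195% of protein-coding genes, and GCGGAAC, at 32 (24.8%). Both are parts of the stretch GCGGAACCCGC, printed above at sup-6. The genes counted include members of the same snRNA families, so they are not independent.

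Around the summits themselves, within 75 bp and on either strand, PSE-like letters were in 50.5% (40.6% to 60.5%) of optimal peaks at snoRNA and snRNA genes, against 26.1% of all optimal peaks. A-box-like or B-box-like letters were in 36.6% (27.5% to 46.7%), against 8.41% of all optimal peaks and 65.4% of regions at tRNA genes. The core letters of SKN-1's binding site, ATCAT or GTCAT, were in 48 of the 93 (51.6%, 41.6% to 61.5%), against 42.5% of all optimal peaks, so that the interval held the general value. Within 150 bp of the summit the core was in 80.6% of them (71.5% to 87.4%), against 65.6% of all optimal peaks, and the interval lay above that value. Over all 189 regions, 52.9% (45.8% to 59.9%) held it within 75 bp, against 44.7% of all pooled regions, again below the interval. In 25 of the 48 optimal peaks with the core within 75 bp, the letters stood only inside the snoRNA or snRNA gene itself. With the bases of those genes masked, 23 of 93 (24.7%) still held the core, in a median of 121 bases left of 151. Other optimal peaks were not masked, so 24.7% cannot be set against their share in full windows. Masking was not done within 150 bp, a window that can take in more of the small RNA gene. How much of the higher share within 150 bp stood inside these genes is therefore not known. Within 75 bp, the AP-1 type letters TGANTCA were in 5.38% of the 93, against 4.25% of all optimal peaks and 4.48% of all pooled regions. TATAA was in 22.6%, against 16.9% of all optimal peaks and 29.0% of all pooled regions.

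**Figure D5:**
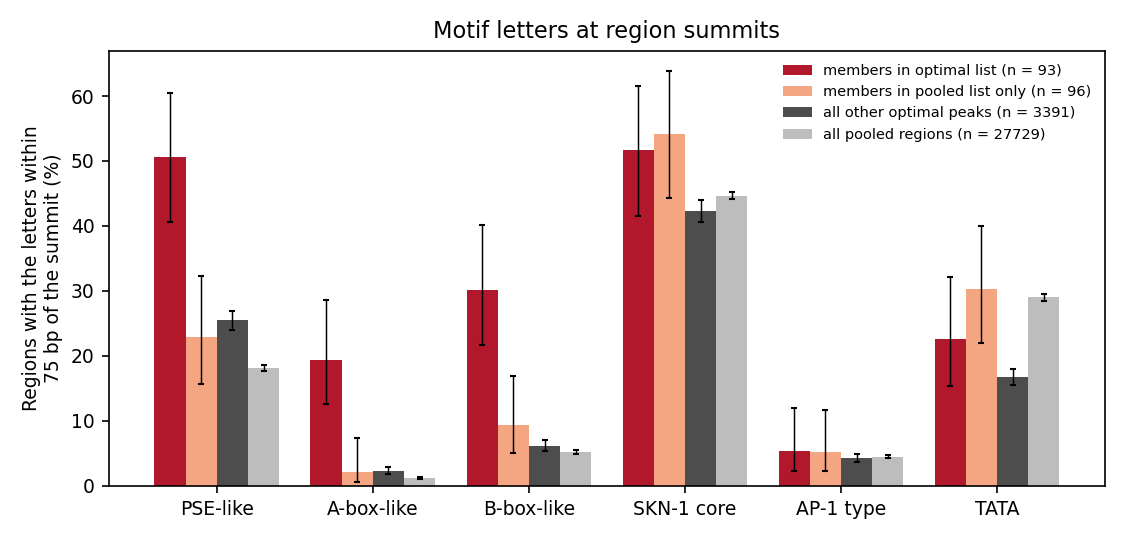
Share of regions (percent, y axis) with each motif's letters within 75 bp of the summit on either strand, for optimal peaks at snoRNA and snRNA genes, regions there in the pooled list only, all other optimal peaks and all pooled regions; lines are 95% Wilson intervals. PSE-like, A-box-like and B-box-like letters are more frequent in the first set than in the others, and for the SKN-1 core and AP-1 type letters the intervals of the first set overlap those of all other optimal peaks.

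Genes for proteins that build or transcribe these RNAs were looked up in 6 lists. An optimal peak lay in a promoter window of 28 of 47 matched genes (59.6%), against 15% of all protein-coding genes. Only 1 of these peaks, at snr-4, was itself one of the 189 regions, since the same peak lies before the snRNA gene T11F9.15. The Sm and Lsm proteins, most of which form rings on snRNAs, had 10 of 14, the strongest at lsm-3 (rank 340) and snr-6 (rank 352). The box C/D and H/ACA snoRNP proteins had 5 of 5 matched, among them fib-1, the methyltransferase fibrillarin (rank 342), nol-58 (rank 656), nol-56 (rank 867) and nola-3 (rank 853). The Integrator complex, which cleaves the ends of snRNA transcripts, had 6 of 11, with ints-4 at rank 175 and ints-1 at rank 515. SNAPc had 3 of 7, namely snpc-3.4 (rank 475), snpc-4 (rank 1907) and snpc-1.1 (rank 2568). The snRNP proteins had 2 of 7, prp-8 (rank 190) and sna-2 (rank 993), and the SMN complex, which loads Sm rings, had 2 of 3. The lists were drawn up by hand with earlier results of these data known, and 12 of their 59 names were not matched in the annotation.

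At the limit of distance, the regions just inside 200 bp were at F17C11.24 (198 bp, signal 73.6, an optimal peak) and Y102A11A.16 (193 bp, signal 22.3, not an optimal peak). Those just outside were at C26C6.13 (203 bp, signal 53.7) and T28B8.11 (207 bp, signal 36.2), both optimal peaks.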

How the data were processed

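Chromatin immunoprecipitation and sequencing of eGFP-tagged SKN-1 gave region lists for 2 biological replicates of 1 group, per the labels. The authors deposited narrowPeak lists for ce10 and ce11, of which the ce11 lists were used. Per the deposited readme, replicate and pooled lists are input to the IDR procedure and hold background regions, and both replicates share 1 control. The signal value per region was deposited by the authors, and its normalization, the caller, the aligner and the depth are not stated in any source used here. The −log10 q-value, also deposited by the authors, was at its maximum in 67.3% of optimal peaks and was not used for ranking.

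Members were found by summit distance, and the members, gene lists and letters were chosen with earlier results of these data known. Shares have 95% Wilson intervals over regions or genes, which are not replicates, and no test across samples was possible with 1 group. Promoter windows, replicate matching (100 bp) and uniqueness (31-base words) were computed with Python 3.11.15, numpy 2.4.6 and edlib 1.3.9.post1, and the scripts were tested on simulated regions. Named members were the 10 optimal peaks of highest signal in each of 3 classes, the next 3 regions outside the optimal list, and the 2 regions on either side of 200 bp. The sequences printed, C41C4.11, T03F7.8, smy-2 and C05D2.15 among them, were picked outside that rule for the letters they hold, after their values were seen.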

Additional observations from a re-analysis of the deposited data

How the results depend on the processing

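Across 17 results, 42 of 62 alternatives stayed within the interval, or for counts within 1.5 times, of the reported value, and 20 moved. The number of regions stayed between 150 and 273 for the alternatives with the pooled list. Using 1 replicate's list cut to the same length, the number of regions was 169 to 198, the share of snoRNA genes with a region 41.6% to 46.2% and with an optimal-rank region 21.1% to 24.3%, and the same shares of snRNA genes 17.8% to 19.4% and 9.30% to 10.9%. With 100 bp, 35.5% of snoRNA genes had a region. With 500 bp, 58.1% of snoRNA genes and 31.0% of snRNA genes had a region, 28.3% of snoRNA genes had an optimal peak, 40.7% of the regions were optimal peaks and the median percentile was 81.2. When the region had to overlap the gene, 39.0% of snoRNA genes had one. Keeping only the stronger 50% of the optimal list left 15% of snoRNA genes with a peak. Replicate agreement at 50 bp was 71.4% for replicate 1, 67.7% for replicate 2 and 51.9% for both, and at 200 bp 85.2% for replicate 2 and 72.5% for both. Promoter windows of 500 bp upstream to 100 bp downstream held 19.6% of the regions. With 150 bp on each side of the summit, the SKN-1 core was in 78.3% of the regions, against 68.1% of all pooled regions. In the same window and against the same set, AP-1 type letters were in 9.52% against 8.80%, and TATAA in 46.6% against 50.5%. PSE-like letters were in 52.9% against 31.7%, and B-box-like letters in 27.0% against 10.5%. Masking the small RNA genes, an alternative chosen after seeing the data, left the core within 75 bp of the summit in 27.5%. No masked share over all pooled regions was computed, and masking was not done for the window of 150 bp on each side. No paired analysis was possible because there was 1 group. With 2 replicates, no reads and a control that was not analysed here, neither the depth nor the replicate error of a signal value is known.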
